A study of Rattus norvegicus with 35 samples.

Results

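The genes described here handle vitamin A in the rat liver: Lrat and Rbp4 for its storage and transport, Rdh10 and Dhrs3 for the exchange of retinol and retinaldehyde, Cyp26a1 and Cyp26b1 for the breakdown of retinoic acid, and the retinoic acid receptors Rara and Rarb. They were chosen as the probe sets whose platform gene symbol was 1 of these 8 names, and all 8 genes were found, on 10 of the 31042 probe sets tested and among the 14217 genes with a symbol of their own. Each gene was read from its probe set of highest mean score. Livers came from individual Wistar Han IGS rats at postnatal day 92, fed a triazole fungicide from gestation day 6 onward, and were hybridised to Affymetrix rat genome arrays. Myclobutanil was given at 500 ppm (5 arrays) and 2000 ppm (4 arrays). Propiconazole was given at 500 ppm (3 arrays) and 2500 ppm (4 arrays), and triadimefon at 500 ppm (5 arrays) and 1800 ppm (4 arrays). The 7 controls received 0 ppm. The design text calls the arrays biological replicates, and no genotype or transgene is named.

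The liver is the body's main store of vitamin A. Hepatocytes take up retinol and send it out bound to Rbp4, while stellate cells hold it as retinyl esters made by Lrat. Retinoic acid, the active form, is made from retinaldehyde and acts through nuclear receptors, and Cyp26 enzymes, themselves induced by retinoic acid in many tissues, oxidise it. Triazole fungicides bind the haem of cytochromes P450, the family to which the Cyp26 enzymes belong.

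The deposited unit is a score of unstated scale and log base for every probe set on every array, so differences are differences of scores and not fold changes. The number of arrays limits the precision. Of 35 arrays listed, 3 that the submitters marked as outside their final analysis held no values (myclobutanil 2000 ppm, 1 array; propiconazole 500 ppm, 2 arrays). The extraction protocol names testis, whereas the titles and the labelling protocol name liver. All 9 measured hepatocyte markers of 10 listed had mean scores above 1 (median 4.48). The 9 measured testis markers of 10 listed had a median mean score of 0.0699, but Prm1, a sperm protamine, ranged from -0.33 to 3.15 across arrays, and its highest score was in triadimefon 1800 ppm replicate 2. The other 3 arrays of that group had Prm1 scores of -0.24, -0.25 and -0.33. Other testis markers also varied between arrays, Tnp1 from -0.34 to 1.44, Odf1 from -0.14 to 1.34 and Tnp2 from -0.32 to 0.76, while Insl3 ran from -0.03 to 0.19. The mean score of the testis list reached 0.84 at triadimefon 1800 ppm and myclobutanil 2000 ppm, 0.78 at myclobutanil 500 ppm and 0.4 in the controls. The 3′ score minus the 5′ score of the GAPDH and β-actin control probe sets, a reading of RNA integrity called the 3′–5′ difference here, ran from 0.5 to 2.12 in the controls, 0.521 to 2.45 at myclobutanil 500 ppm and 1.16 to 1.86 at triadimefon 1800 ppm, against 0.469 to 0.842 over the arrays of the other 4 groups. The 9 arrays with a GAPDH difference above 0.9 (controls 4 to 7, myclobutanil 500 ppm replicates 1 and 5, triadimefon 1800 ppm replicates 2 to 4) are called arrays of high 3′–5′ difference. β-actin was not used for that class, so triadimefon 1800 ppm replicate 1 (mean difference of both genes 1.17) and control 2 (1.11) lie outside it while triadimefon 1800 ppm replicate 3 (1.16) lies inside. Animal numbers in the titles were above 3000 for controls 5 to 7 and triadimefon 1800 ppm replicates 2 to 4, and lower for all others.

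A pair of the genes carries, near the start site, the spaced repeat that retinoic acid receptors are known to bind. They are shown because Cyp26a1 is the member with the clearest difference from the controls. The repeat, named DR5, is a pair of half-sites in the same direction separated by 5 bases, and was searched on both strands from 250 bases before the start site to 50 after it. In the RefSeq sequences of GRCr8, it was in 2 of the 7 member windows in the table, those of Cyp26a1 and Rarb, and in 0.382% of all 33469 windows. The members were chosen as retinoid genes, so these shares are a description and not a test. DR1 and DR2, the same half-sites with spacers of 1 and 2 bases, were in 0 member windows, against 0.233% and 0.17% of all windows. The first sequence is the window of Cyp26a1 before its start site (chr1:244883572-244883821, + strand, positions -250 to -1), with the DR5 in capitals at -92 to -76 and running on the opposite strand. The next is the stretch of Rarb at 19 to 47 after its start site (chr15:11336410-11336438, + strand), with the DR5 in capitals.
Cyp26a1: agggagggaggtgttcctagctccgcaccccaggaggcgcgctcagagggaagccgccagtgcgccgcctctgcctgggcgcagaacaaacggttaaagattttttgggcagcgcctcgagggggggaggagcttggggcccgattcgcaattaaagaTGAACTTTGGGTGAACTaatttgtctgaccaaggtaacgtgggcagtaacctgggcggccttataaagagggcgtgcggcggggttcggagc
Rarb: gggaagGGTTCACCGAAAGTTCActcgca
Read along their own strands, with the half-sites in capitals, the repeats are these.
Cyp26a1 DR5: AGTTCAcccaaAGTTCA
Rarb DR5: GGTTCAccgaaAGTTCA
The repeats were identical at 15 of 17 positions, and the substitutions from Cyp26a1 to Rarb, counted from the 5′ end of the repeat, were A1G and C9G. A match of letters is a description and not a binding site shown in these livers.

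Across the 6 comparisons with the controls, Cyp26a1 at triadimefon 1800 ppm was the only 1 of the 8 genes to pass the threshold, an adjusted p of 0.05 in limma over all 31042 probe sets. In that comparison 1.17% of all probe sets passed (362), 1.04% as higher (322) and 0.129% as lower, and after quantile normalisation 305 of 432 calls were higher. None of the 8 genes passed at myclobutanil 500 ppm or propiconazole 500 ppm, where 0% of probe sets passed (1281 and 2866 had an unadjusted p under 0.05), at myclobutanil 2000 ppm (0.0644%), at propiconazole 2500 ppm (0.254%) or at triadimefon 500 ppm (0.00966%). At an unadjusted p under 0.05 the number of the 8 genes was 0 at myclobutanil 500 ppm and 2 in each of the other 5 comparisons. Of the 31042 probe sets, 7518 reached it at myclobutanil 2000 ppm, 6183 at propiconazole 2500 ppm, 9108 at triadimefon 500 ppm and 3341 at triadimefon 1800 ppm, so a count of 2 of 8 was near the background in the first 3 of these. The median difference of the 8 genes at triadimefon 1800 ppm was 0.03, against 0.02 over all probe sets. The 6 comparisons share the same 7 control arrays. Within each gene, groups placed next to each other in the order of their means overlapped in 48 of 48 cases. That order is made from the same scores, so neighbours tend to overlap for any gene. The count was not made over all probe sets and is not a trait of these genes.

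**Figure D1:**
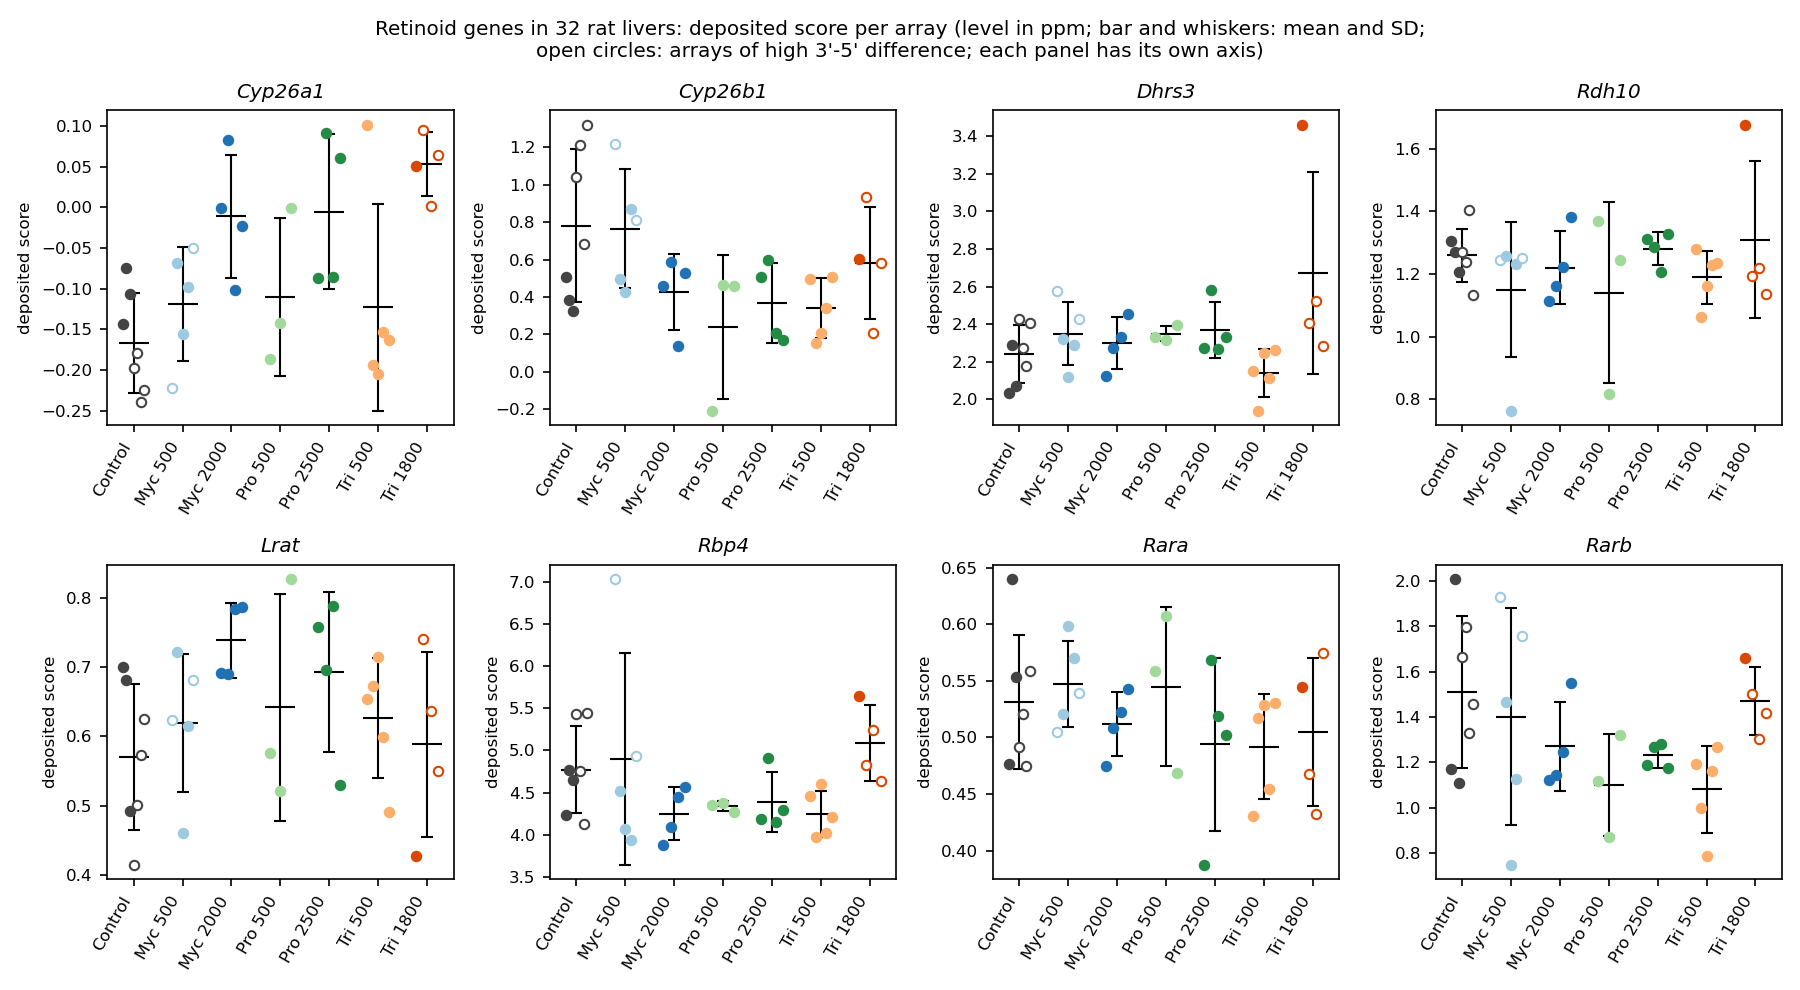
Deposited score of each gene (y axis, own scale per panel) in each of 32 arrays, by group (x axis), with the group mean and SD as bar and whiskers and open circles for arrays of high 3′–5′ difference. The 4 triadimefon 1800 ppm arrays lie above all 7 controls for Cyp26a1, and 1 array of that group stands at 3.46 for Dhrs3.

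Cyp26a1, the main retinoic acid hydroxylase of the liver, scored higher at triadimefon 1800 ppm than in the controls, though not past the threshold under every alternative. Its control scores had a lowest value of -0.24, a median of -0.18 and a highest value of -0.07. The 4 triadimefon 1800 ppm arrays scored 0.05, 0.10, 0.00 and 0.06 (replicates 1 to 4), all above every control. The groups did not overlap, which was so in this direction for 1.18% of all probe sets. The mean score was 0.0532 ± 0.0389 (SD, n = 4) against -0.167 ± 0.0612 in the controls (n = 7), a difference of 0.22 ± 0.0515 (SE; 95% interval 0.11 to 0.33; adjusted p = 0.0264, limma). The score is low on this platform: 38.9% of probe sets had a mean at or below that of Cyp26a1. Its mean over all arrays was -0.08, under the lowest array median of 0.00531, and detection above background was not tested. In bulk liver, a change in the number of cells of a type and a change in RNA per cell cannot be told apart.

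At the high levels of the other 2 compounds the scores of Cyp26a1 lay on the same side of the control mean without passing the threshold. At myclobutanil 2000 ppm they were 0.00, 0.08, -0.10 and -0.02 (replicates 2 to 5), and 3 of 4 exceeded every control. The difference was 0.16 ± 0.0515 (95% interval 0.05 to 0.26, adjusted p = 0.106, limma), and of the alternatives it passed only without control 3 (0.17, adjusted p = 0.0489), where 3013 probe sets passed in place of 20. At propiconazole 2500 ppm they were -0.09, 0.09, -0.09 and 0.06, and 2 of 4 exceeded every control. That difference was 0.16 ± 0.0515 (95% interval 0.06 to 0.27, adjusted p = 0.128). Taken as 12 arrays of the 3 high levels, which differ in dose and so are set side by side only, scores ran from -0.10 to 0.10 with a median of 0.03. All 12 exceeded the control median and 9 exceeded the highest control, and the shares of all probe sets that did so were not computed. The 4 controls of high 3′–5′ difference scored from -0.24 to -0.18 and the other 3 from -0.14 to -0.07. Myclobutanil 2000 ppm and propiconazole 2500 ppm had 0 arrays of high 3′–5′ difference, so only the other 3 controls are like them in that class.

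At 500 ppm the Cyp26a1 scores mostly overlapped the controls. They were -0.22, -0.07, -0.16, -0.10 and -0.05 at myclobutanil 500 ppm. They were -0.19, -0.14 and 0.00 at propiconazole 500 ppm (replicates 1, 2 and 5) and 0.10, -0.19, -0.21, -0.15 and -0.16 at triadimefon 500 ppm. Of these 13 arrays, 4 exceeded the highest control and 9 the control median. Differences from the controls were 0.05 (95% interval -0.05 to 0.15), 0.06 (-0.06 to 0.17) and 0.04 (-0.06 to 0.14) for myclobutanil, propiconazole and triadimefon, with adjusted p of 1.0, 0.704 and 0.539 in limma. Between levels of triadimefon, Cyp26a1 was higher at 1800 than at 500 ppm by 0.18 ± 0.0551 (95% interval 0.06 to 0.29, adjusted p = 0.025). These groups overlapped through replicate 1 of 500 ppm, and 24.8% of all probe sets passed in this comparison, 22.3% as higher and 2.46% as lower. Of the 7690 calls 6927 were higher, and after quantile normalisation 1661 of 3001 were.

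The triadimefon 1800 ppm result for Cyp26a1 passed under 13 of 21 alternatives, with differences from 0.16 to 0.27, and was lost without control 6 (0.21, adjusted p = 0.0523), triadimefon 1800 ppm replicate 1 (0.22, 0.0591), replicate 2 (0.21, 0.0827) or replicate 4 (0.22, 0.08). With the animal number series as a block it was 0.24 (adjusted p = 0.023, limma), within animals below 3000 it was 0.18 (1 array against 4, adjusted p = 0.313) and within those above 3000 it was 0.27 (3 against 3, adjusted p = 0.162). The 4 controls of high 3′–5′ difference scored from -0.24 to -0.18 and the other 3 from -0.14 to -0.07. With the 3′–5′ covariate in the model, the triadimefon 1800 ppm difference was 0.23 (adjusted p = 0.0131), and with those arrays removed it was 0.16 (1 array against 3, adjusted p = 0.322). The difference between 1800 and 500 ppm passed under 7 of 18 alternatives. It was lost without triadimefon 500 ppm replicate 2, 3 or 5 (0.16, 0.16 and 0.17, adjusted p 0.0589, 0.0594 and 0.0526) and without triadimefon 1800 ppm replicate 2 or 4 (0.16 and 0.17, adjusted p 0.0661 and 0.0564).

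**Figure D2:**
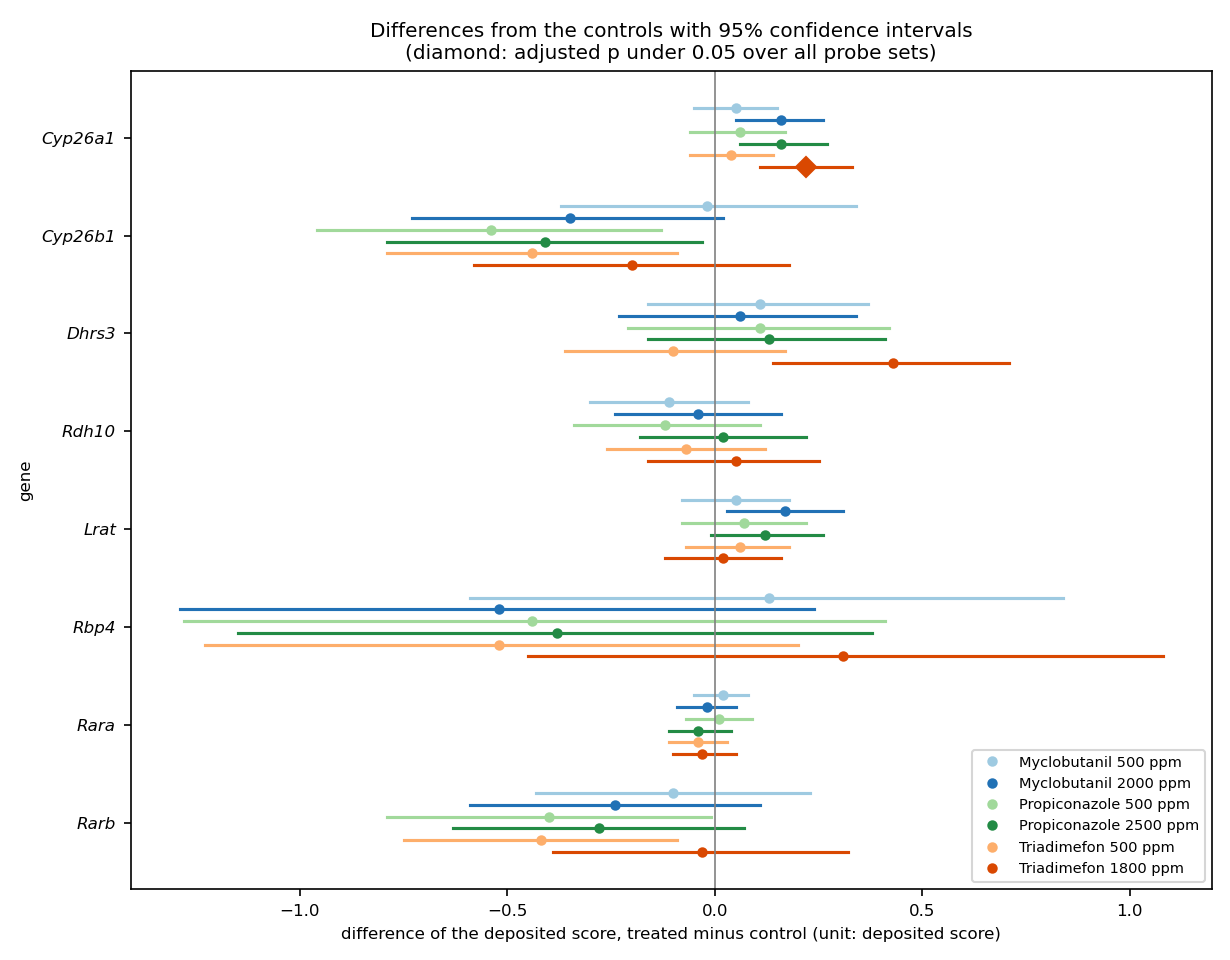
Difference of the deposited score, treated minus control (x axis, in score units), for each gene (y axis) and each treated group (colour), with 95% confidence intervals as lines and a diamond where the adjusted p was under 0.05. The only diamond is Cyp26a1 at triadimefon 1800 ppm, at 0.22, and the intervals of Rbp4 are the widest, reaching from -1.29 to 1.08.

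Cyp26b1, the second retinoic acid hydroxylase, passed in no comparison. Its control scores had a lowest value of 0.33, a median of 0.68 and a highest value of 1.32. At triadimefon 500 ppm they were 0.50, 0.15, 0.21, 0.34 and 0.51, in the lower part of the control range or under it. At propiconazole 500 ppm they were -0.21, 0.46 and 0.46, with 1 array under every control. The means were 0.341 ± 0.161 (SD, n = 5) and 0.24 ± 0.387 (n = 3) against 0.782 ± 0.408 in the controls (n = 7). The differences were -0.44 ± 0.172 (95% interval -0.79 to -0.09, adjusted p = 0.11) and -0.54 ± 0.203 (95% interval -0.96 to -0.13, adjusted p = 0.536) in limma. At the remaining levels they were -0.02 (myclobutanil 500 ppm), -0.35 (myclobutanil 2000 ppm), -0.41 (propiconazole 2500 ppm) and -0.20 (triadimefon 1800 ppm), with adjusted p of 1.0, 0.232, 0.219 and 0.788. All 6 differences were negative with all arrays, but not under every alternative. They share the 7 controls. Of all probe sets, 23.9% (triadimefon 500 ppm) to 65.7% (triadimefon 1800 ppm) had a positive difference in these comparisons.

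The controls themselves separated by 3′–5′ difference for Cyp26b1: the 4 of high difference scored from 0.68 to 1.32 and the other 3 from 0.33 to 0.51. Without the arrays of high difference, the triadimefon 500 ppm difference was -0.06 (5 arrays against 3, adjusted p = 0.956), that of myclobutanil 2000 ppm was 0.02 (adjusted p = 0.976) and that of triadimefon 1800 ppm turned to 0.20 (1 array against 3, adjusted p = 0.643). With the 3′–5′ covariate, the triadimefon 500 ppm difference was -0.09 (adjusted p = 1.0), and that between 1800 and 500 ppm was -0.19 (adjusted p = 0.659), against 0.24 without it. Without control 3 the triadimefon 500 ppm difference was -0.52 (adjusted p = 0.0455, limma), and 4464 probe sets passed in place of 3. The other Cyp26b1 probe set differed from the controls by -0.12 to -0.01 and passed in no comparison.

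**Figure D3:**
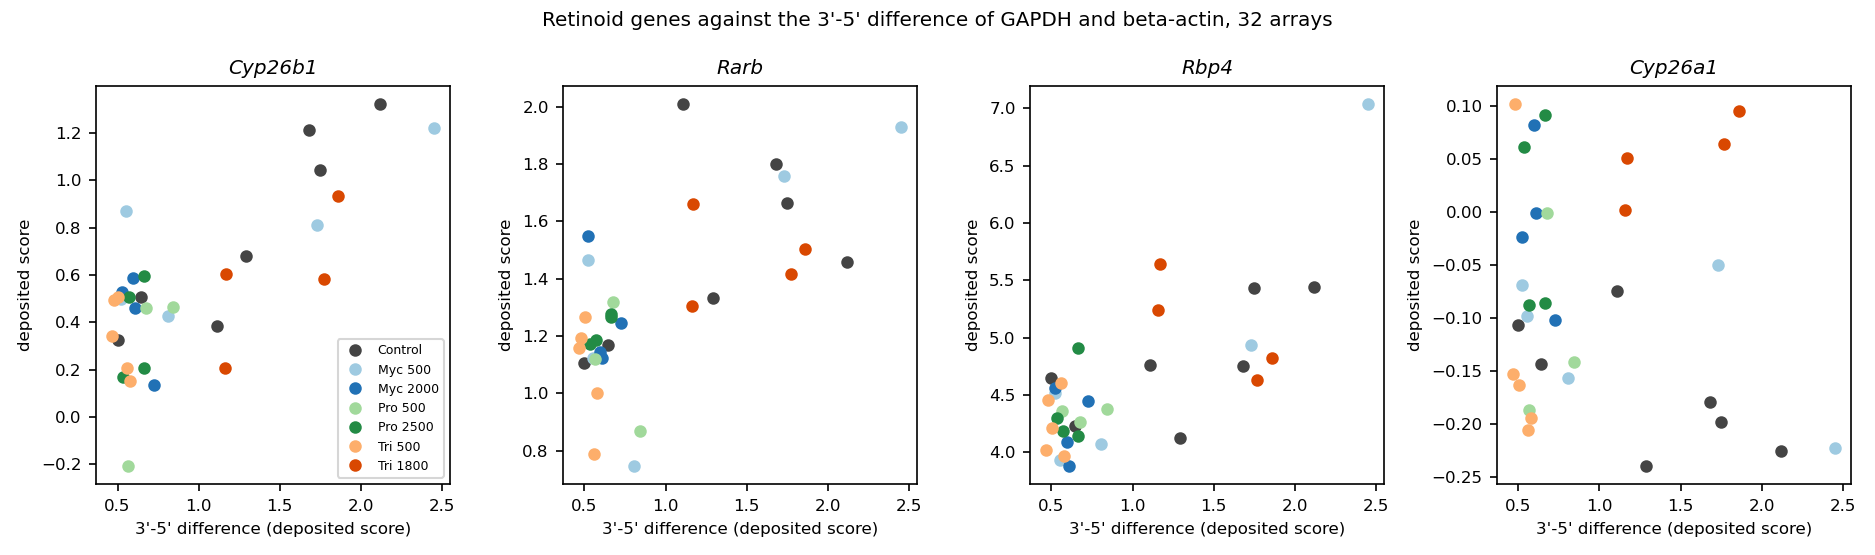
Deposited score of Cyp26b1, Rarb, Rbp4 and Cyp26a1 (y axes) against the 3′–5′ difference (x axis, mean of both control genes, in score units) in 32 arrays, coloured by group. For Cyp26b1 the arrays above 1.0 both reach the highest scores, up to 1.32, and include 1 at 0.21; for Cyp26a1 the triadimefon 1800 ppm arrays lie from 0.00 to 0.10 and the 4 controls of high difference from -0.24 to -0.18.

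Dhrs3, a retinaldehyde reductase that turns retinaldehyde back into retinol, was higher at 1800 than at 500 ppm triadimefon. Scores were 3.46, 2.40, 2.52 and 2.28 at 1800 ppm and 2.15, 1.94, 2.25, 2.12 and 2.26 at 500 ppm. All 4 high-level arrays exceeded all 5 others, which held in this direction for 21.8% of all probe sets, and replicate 1 stood far above the rest. The difference was 0.52 ± 0.148 (95% interval 0.22 to 0.83, adjusted p = 0.0164, limma). Dhrs3 and Cyp26a1 were the 2 of the 8 genes that passed in this comparison. As 24.8% of probe sets passed, a count of 2 of 8 was near the background. The median difference of the 8 genes was 0.21, against 0.06 over all probe sets, and 7 of the 8 differences and 78.3% of all differences were positive. The 8 genes were read from their probe sets of highest mean, and the medians were not compared at like mean scores. The Dhrs3 difference was 0.26 without triadimefon 1800 ppm replicate 1 (adjusted p = 0.0549, limma) and 0.09 after quantile normalisation (adjusted p = 0.597). It was 0.43 with the 3′–5′ covariate (adjusted p = 0.271) and 0.52 with only the 2 triadimefon groups in the fit (adjusted p = 0.103).

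Against the controls, Dhrs3 did not pass. Control scores had a lowest value of 2.04, a median of 2.28 and a highest value of 2.43, so 2 of the 4 triadimefon 1800 ppm arrays exceeded them all. The difference was 0.43 ± 0.139 (95% interval 0.14 to 0.71, adjusted p = 0.159, limma), and 0.16 without replicate 1 (adjusted p = 0.558). It was 1.26 within animals below 3000 (adjusted p = 3.62e-05) and 1.33 without arrays of high 3′–5′ difference (adjusted p = 2.28e-06), where replicate 1 stands alone against 4 and 3 controls, and 0.12 within animals above 3000 (adjusted p = 0.914). Replicate 1 is the only triadimefon 1800 ppm animal numbered below 3000 and the only array of that group outside those of high 3′–5′ difference. At the remaining levels Dhrs3 differed from the controls by -0.10 (triadimefon 500 ppm) to 0.13 (propiconazole 2500 ppm), each within 1 SD of the control arrays (0.153).

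Rdh10, the main retinol dehydrogenase of retinoic acid synthesis in embryos, passed in no comparison. Its control scores had a lowest value of 1.13, a median of 1.27 and a highest value of 1.40. The differences from the controls ran from -0.12 (propiconazole 500 ppm) to 0.05 (triadimefon 1800 ppm). Single arrays set the spread: myclobutanil 500 ppm replicate 3 scored 0.76 and propiconazole 500 ppm replicate 2 scored 0.82, both under every control, and triadimefon 1800 ppm replicate 1 scored 1.68, above every control. Where that replicate alone stood for its group, without arrays of high 3′–5′ difference, the difference from triadimefon 500 ppm was 0.48 (adjusted p = 0.0367, limma), against 0.11 with all arrays. The other Rdh10 probe set had control scores from -0.31 to -0.22 and differences of -0.01 to 0.02.

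Lrat, which esterifies retinol for storage and in liver is made by stellate cells, passed in no comparison. Control scores had a lowest value of 0.41, a median of 0.57 and a highest value of 0.70. At myclobutanil 2000 ppm they were 0.69, 0.69, 0.78 and 0.79, of which 2 exceeded every control and none fell to the control median. The mean was 0.739 ± 0.0544 (SD, n = 4) against 0.57 ± 0.106 in the controls (n = 7), a difference of 0.17 ± 0.0662 (95% interval 0.03 to 0.31, adjusted p = 0.138, limma). The difference was 0.12 at propiconazole 2500 ppm (adjusted p = 0.288) and 0.02 at triadimefon 1800 ppm (adjusted p = 0.962), where replicate 1 was the lowest of the group at 0.43. At 500 ppm the differences were 0.05, 0.07 and 0.06 for myclobutanil, propiconazole and triadimefon.

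Markers of stellate cells, the cells that hold Lrat, were read beside it. Of 16 stellate cell and fibroblast markers, all measured, 0 passed at myclobutanil 2000 ppm, against 0.0644% of all probe sets. An unadjusted p under 0.05 was reached there by 3 of the 16 and by 7518 of all 31042 probe sets. At triadimefon 1800 ppm 2 passed as higher, against 1.04% of all probe sets. They were Rgs5 (0.32 ± 0.0484, adjusted p = 0.000327, limma) and Col1a2 (0.31 ± 0.0782, adjusted p = 0.041). The mean score of the list ran from 0.43 to 0.48 at myclobutanil 2000 ppm, from 0.44 to 0.57 in the controls and from 0.59 to 0.74 at triadimefon 1800 ppm, where every array exceeded every control. Every array of that group also did so for the mean score of the 4 measured biliary markers (0.15 to 0.31 against 0.03 to 0.1). A share over other lists of like size was not computed. At triadimefon 1800 ppm, 0 of 8 measured Kupffer cell markers, 0 of 6 sinusoidal endothelial markers, 0 of 9 hepatocyte markers and 0 of 9 testis markers passed, and 1 of 4 biliary markers did, Epcam (0.72 ± 0.116, adjusted p = 0.000791). At an unadjusted p under 0.05 the counts of these lists in that order were 7, 2, 0, 0 and 1 (3341 of all 31042 probe sets), and the mean score of the Kupffer list ran from 1.21 to 1.66, against 0.9 to 1.35 in the controls. The median differences of those lists were 0.35 (Kupffer), 0.11 (endothelial), 0.36 (hepatocyte), -0.01 (testis) and 0.02 (biliary), and that of the stellate list was 0.13. Of the 16 stellate markers, 7 had an unadjusted p under 0.05 in that comparison. The biliary markers besides Epcam had low mean scores over all arrays, -0.0866 (Krt19), -0.115 (Krt7) and 0.052 (Spp1). The medians of the stellate, Kupffer, endothelial, hepatocyte and biliary lists were all positive in the group where Cyp26a1 passed. In that comparison 65.7% of all probe sets had a positive difference, with a median of 0.02. A part of these cell types in the Cyp26a1 result was not tested.

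Rbp4, the plasma carrier of retinol secreted by hepatocytes, passed in no comparison. Control scores had a lowest value of 4.13, a median of 4.75 and a highest value of 5.45, with a mean of 4.77 ± 0.518 (SD, n = 7). At triadimefon 1800 ppm they were 5.64, 4.83, 5.24 and 4.64, and at triadimefon 500 ppm they were 4.46, 3.97, 4.60, 4.02 and 4.21. The 2 triadimefon groups did not overlap, as for 21.8% of all probe sets in this direction, but the difference of 0.83 ± 0.399 did not pass (95% interval 0.01 to 1.65, adjusted p = 0.116, limma). It was 0.06 after quantile normalisation and -0.01 with the 3′–5′ covariate, and it passed with only these groups in the fit (adjusted p = 0.0248) and without arrays of high 3′–5′ difference (1.39, 1 array against 5, adjusted p = 0.00153). Differences from the controls were 0.13, -0.52, -0.44, -0.38, -0.52 and 0.31 for myclobutanil 500 and 2000 ppm, propiconazole 500 and 2500 ppm and triadimefon 500 and 1800 ppm. With the 3′–5′ covariate the sign turned at myclobutanil 2000 ppm (0.07), propiconazole 2500 ppm (0.22) and triadimefon 500 ppm (0.16), and without replicate 1 the myclobutanil 500 ppm difference was -0.41. The median differences of the hepatocyte markers in the same order were 0.11, -0.40, -0.31, -0.23, -0.44 and 0.36. Myclobutanil 500 ppm replicate 1, which had the highest 3′–5′ difference, also had the highest Rbp4 score, 7.04.

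Rara, the retinoic acid receptor found in most tissues, had the narrowest spread of the intervals. Control scores had a lowest value of 0.47, a median of 0.52 and a highest value of 0.64. The differences from the controls ran from -0.04 to 0.02 and every interval lay between -0.11 and 0.09, so shifts beyond these bounds fell outside the 95% intervals. None passed.

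Rarb, a receptor gene that retinoic acid induces through the DR5 printed above in many cell types, passed in no comparison. Control scores had a lowest value of 1.11, a median of 1.46 and a highest value of 2.01. At triadimefon 500 ppm they were 1.19, 1.0, 0.79, 1.16 and 1.27, with 2 of 5 under every control. The difference was -0.42 ± 0.161 (95% interval -0.75 to -0.09, adjusted p = 0.104, limma), and of the alternatives it passed only without control 3 (-0.49, adjusted p = 0.0443). At triadimefon 1800 ppm the scores were 1.66, 1.5, 1.30 and 1.42, within the control range, with a difference of -0.03 (95% interval -0.39 to 0.32, adjusted p = 0.975). Between levels of triadimefon the Rarb arrays did not overlap, as for 21.8% of all probe sets in this direction, with a difference of 0.39 ± 0.184 (95% interval 0.01 to 0.77, adjusted p = 0.111). It was 0.08 with the 3′–5′ covariate and passed with only these groups in the fit (adjusted p = 0.0293). The remaining differences were -0.10, -0.24, -0.40 and -0.28 at myclobutanil 500 and 2000 ppm and propiconazole 500 and 2500 ppm, with adjusted p of 1.0, 0.381, 0.541 and 0.349. Cyp26a1 and Rarb, the genes with a DR5, had differences of 0.22 and -0.03 at triadimefon 1800 ppm, and a part of the DR5 in either was not tested.

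The compounds were compared at their shared level of 500 ppm, in 3 pairs. All 3 carry a triazole ring, beside which myclobutanil has a nitrile group, propiconazole a dioxolane ring and triadimefon a ketone. None of the 8 genes passed in any pair, and 0% of all probe sets did (1332, 5934 and 772 had an unadjusted p under 0.05 for myclobutanil minus propiconazole, myclobutanil minus triadimefon and propiconazole minus triadimefon). At an unadjusted p under 0.05 there was 1 of the 8 genes for myclobutanil minus propiconazole, 1 for myclobutanil minus triadimefon, both times Cyp26b1, and 0 for propiconazole minus triadimefon. Cyp26b1 was 0.53 ± 0.215 higher with myclobutanil than with propiconazole (95% interval 0.08 to 0.97, adjusted p = 0.855, limma). It was 0.42 ± 0.186 higher with myclobutanil than with triadimefon (95% interval 0.04 to 0.81, adjusted p = 0.244). The other Cyp26b1 probe set was 0.11 ± 0.0488 higher with myclobutanil than with propiconazole (adjusted p = 0.855), and its groups did not overlap, as for 1.97% of all probe sets in this direction. The myclobutanil arrays were the only ones at 500 ppm with high 3′–5′ differences, 2 of 5. Dhrs3 scores of propiconazole (2.33, 2.32 and 2.39) all exceeded those of triadimefon, as for 4.02% of all probe sets in this direction, with a difference of 0.20 ± 0.161 (95% interval -0.13 to 0.54, adjusted p = 1.0). For Cyp26a1 the intervals were -0.13 to 0.11 for myclobutanil minus propiconazole, -0.10 to 0.11 for myclobutanil minus triadimefon and -0.11 to 0.14 for propiconazole minus triadimefon. A difference of the size found at triadimefon 1800 ppm lies outside all 3.

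Between the levels of myclobutanil and of propiconazole none of the 8 genes passed, and 0% of all probe sets did. At an unadjusted p under 0.05 there were 0 of the 8 genes in both, and 3404 and 365 probe sets. Cyp26a1 was 0.11 ± 0.0551 higher at 2000 than at 500 ppm myclobutanil (95% interval -0.01 to 0.22, adjusted p = 0.447, limma). It was 0.10 ± 0.0628 higher at 2500 than at 500 ppm propiconazole (95% interval -0.02 to 0.23, adjusted p = 1.0).

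Of 46 further genes of retinoid transport, metabolism and signalling listed, 37 were measured. Aldh1a1, which oxidises retinaldehyde to retinoic acid and has other aldehyde substrates, passed at propiconazole 2500 ppm and triadimefon 1800 ppm. Its control scores had a lowest value of 0.89, a median of 2.00 and a highest value of 2.09. The scores were 4.29, 4.03, 4.09 and 4.05 at triadimefon 1800 ppm, 3.31, 3.39, 2.95 and 3.81 at propiconazole 2500 ppm and 2.76, 2.88, 3.07 and 2.64 at myclobutanil 2000 ppm. All 12 of these arrays exceeded every control, which held for 1.18%, 0.767% and 0.332% of all probe sets in the same order. The differences were 2.28 ± 0.255 (adjusted p = 5.5e-06, limma), 1.53 ± 0.255 (adjusted p = 0.007) and 1.0 ± 0.255 (adjusted p = 0.0768). At propiconazole 2500 ppm the call was lost without replicate 4 of that group (1.38, adjusted p = 0.0694), within animals numbered below 3000 (1.39, adjusted p = 0.0825) and without arrays of high 3′–5′ difference (1.42, adjusted p = 0.0746).

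Rarres1, named for its induction by a synthetic retinoid in skin, was the other gene of the list that rose at triadimefon 1800 ppm. The scores were 3.72, 2.67, 2.85 and 2.68 against a control range of 1.90 to 2.43. The groups did not overlap, as for 1.18% of all probe sets in this direction. The difference was 0.78 ± 0.169 (95% interval 0.44 to 1.13, adjusted p = 0.0141, limma), and 0.54 without replicate 1 (adjusted p = 0.0881), the array that was also highest for Dhrs3 and Rdh10. It passed under 17 of 21 alternatives. The call was also lost after quantile normalisation (0.56, adjusted p = 0.0792, limma), with only the 2 groups in the fit (0.78, 0.193) and within animals above 3000 (0.60, 0.346). In all, 2 of the 37 genes rose at triadimefon 1800 ppm (1.04% of all probe sets did) and 1 at propiconazole 2500 ppm (0.132%), and 0 passed in the other 4 comparisons with the controls, where 1 (myclobutanil 500 ppm), 7 (myclobutanil 2000 ppm), 2 (propiconazole 500 ppm) and 11 (triadimefon 500 ppm) had an unadjusted p under 0.05. Over all 31042 probe sets the counts in that order were 1281, 7518, 2866 and 9108, so the shares at myclobutanil 2000 ppm and triadimefon 500 ppm were near the background. None fell, against 0.129% of all probe sets at triadimefon 1800 ppm, 0.122% at propiconazole 2500 ppm, 0.0548% at myclobutanil 2000 ppm and 0.00966% at triadimefon 500 ppm. The median difference of the 37 genes ran from -0.05 to 0.03 over the 6 comparisons, and that of all probe sets from -0.04 to 0.02.

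In the comparisons where none passed, the 3 genes of smallest p included Rxra, a partner of the retinoic acid receptors, with 0.17 at propiconazole 500 ppm (adjusted p = 0.554, limma) and 0.23 at triadimefon 500 ppm (adjusted p = 0.0857). Its relative Rxrb had -0.20 at myclobutanil 2000 ppm (adjusted p = 0.105) and -0.21 at triadimefon 500 ppm (adjusted p = 0.0759). The retinoid dehydrogenase family member Dhrs7 had -0.28 at triadimefon 500 ppm (adjusted p = 0.0914), and Lrp1, a receptor for lipoprotein remnants, had -0.47 at myclobutanil 2000 ppm (adjusted p = 0.148). At propiconazole 500 ppm the retinol-binding protein receptor Stra6 had -0.12 and the carotene oxygenase Bco1 had 0.61, both with an adjusted p of 0.536. At myclobutanil 500 ppm Aldh1a1 had 0.68, and Aldh1a2 and Dhrs9 had 0.06 each, with adjusted p of 1.0.

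Between the levels of triadimefon 6 of the 37 genes rose, against 22.3% of all probe sets, and none fell, against 2.46%. They were Aldh1a1 (1.66, adjusted p = 0.00096, limma), Rarres1 (0.55, 0.031), the retinol dehydrogenase Rdh5 (0.48, 0.0234), Dhrs7 (0.44, 0.0109), Rxrb (0.29, 0.00863) and Dgat1 (0.27, 0.0307), an acyltransferase that can esterify retinol. Rarres1 was lost without triadimefon 1800 ppm replicate 1 (0.30, adjusted p = 0.149), without triadimefon 500 ppm replicate 2, 4 or 5 (0.50, 0.53 and 0.49, adjusted p 0.0689, 0.0552 and 0.072) and after quantile normalisation (0.10, adjusted p = 0.756). With the number series as a block 2 of the 37 genes passed, and with the 3′–5′ covariate 1. The median difference of the 37 genes was 0.12 and that of all probe sets 0.06, and the 2 were not compared at like mean scores. In the same comparison 8 of 16 stellate cell markers, 6 of 8 Kupffer cell markers, 2 of 6 sinusoidal endothelial markers, 1 of 4 biliary, 1 of 9 hepatocyte and 1 of 9 testis markers rose.

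**Figure D4:**
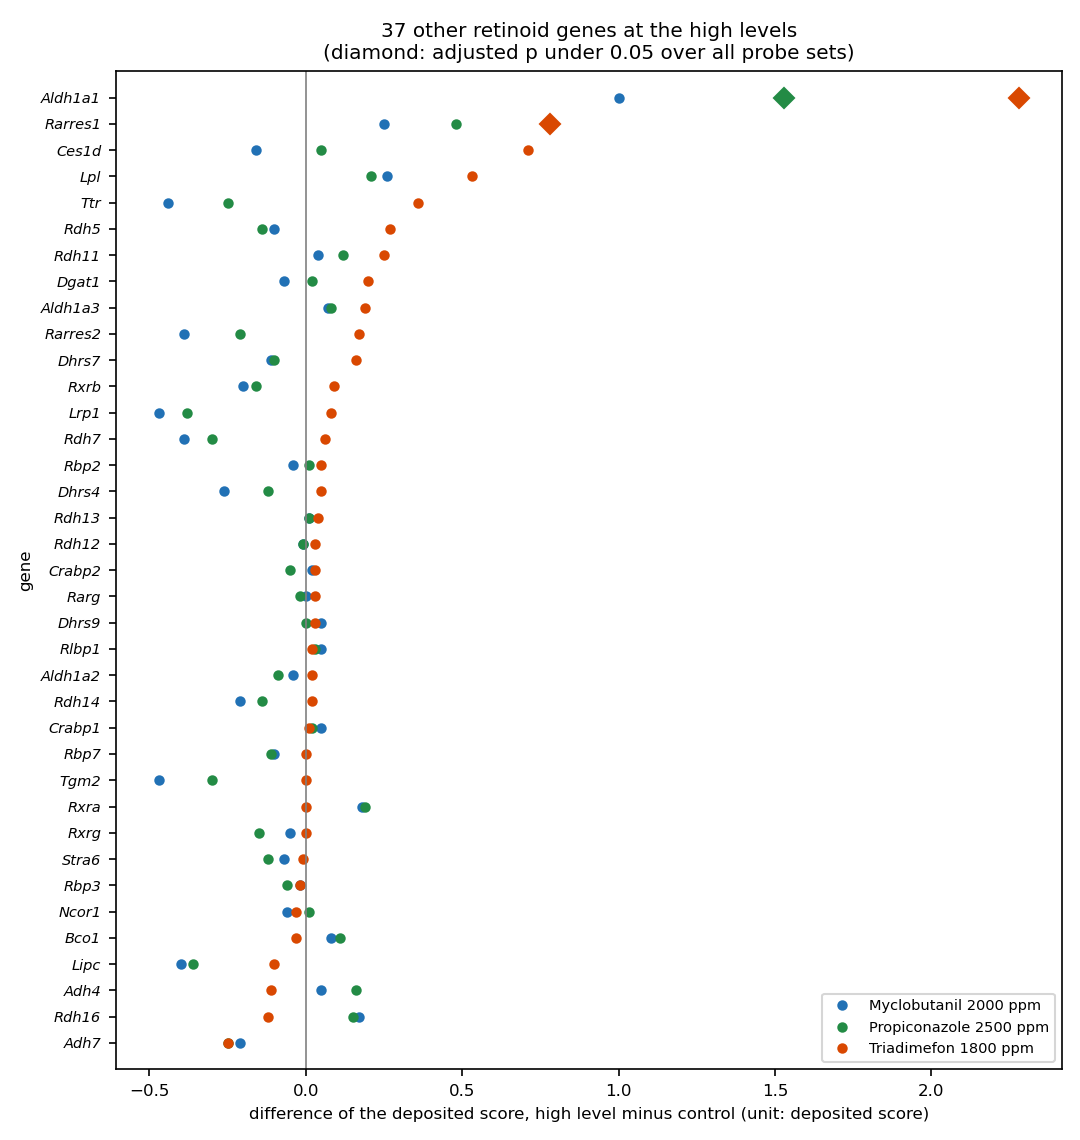
Difference of the deposited score from the controls (x axis, in score units) of the 37 other retinoid genes (y axis) at the 3 high levels (colour), with a diamond where the adjusted p was under 0.05. Aldh1a1 lies at 1.0, 1.53 and 2.28 for myclobutanil, propiconazole and triadimefon, and Rarres1 at triadimefon 1800 ppm is the only other diamond.

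The genes whose scores ran most alike to each member over the 32 arrays were ranked by Pearson's r among 9457 genes with a mean above the median, as a description of arrays that share groups and RNA integrity. For Cyp26a1 they were the carboxylesterase Ces2c and the peptidase Scpep1 (0.74 each). For Cyp26b1 they were Hyal3 and Nol6 (0.85 and 0.82), for Dhrs3 Tnfrsf1a and Psmd2 (0.93 and 0.92), and for Rdh10 Tmem185a and Sec24d (0.87 each). For Lrat they were Ogn and Fcgr2b (0.70 and 0.68) and for Rbp4 Mgst1 and Ambp (0.99 each). For Rara they were Gigyf1 and Magix (0.64 and 0.63) and for Rarb Cgn and Dapk1 (0.87 and 0.85).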

How the data were processed

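Liver RNA of individual rats was hybridised to 1 Affymetrix array each, per the labels' protocols. Each deposited value is a score; its summary method, normalisation, scale and log base are not stated in the labels or the file. The test had been planned for log2 values and was run on the deposited scores unchanged. Of 31099 probe sets, 57 control probe sets were set aside. The platform annotation gave 1 symbol to 20826 of the rest, several to 436 and none to 9780; the Entrez identifiers of all 8 members carried the same symbol in RefSeq. Array medians ran from 0.00531 to 0.0585 and array SDs from 0.701 to 1.02. Arrays of a group correlated at 0.933 to 0.996 and none were identical.

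All 7 groups entered 1 linear model (limma 3.58.1, R 4.3.3, data.table version 1.17.8; lmFit, contrasts and eBayes), with 12 comparisons, two-sided tests, Benjamini-Hochberg adjustment over 31042 probe sets within a comparison and a threshold of 0.05. The script was tested on simulated data. Tables were made with Python 3.11.15, pandas 2.3.3 and numpy 2.4.6, figures with matplotlib 3.10.9. The sources used here do not say whether animals were littermates, and p-values measure the spread between the arrays.

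Named were all 8 members with every probe set of theirs, the genes of the other retinoid list past the threshold against the controls (otherwise the 3 of smallest p), the 2 genes most alike to each member, and marker lists by counts and medians. The genes of the list past the threshold between the levels of triadimefon and the markers past it were named after their values were seen. So were the single testis markers and the biliary markers besides Epcam. The members, the lists and the alternatives were chosen with earlier results of these data known. Alternatives were a fit of only the 2 groups compared, quantile normalisation, leaving out the 40% dimmest probe sets, trended and robust variances, a block for the replicate number or for the series of animal numbers, either series alone, a 3′–5′ covariate, removal of arrays with a GAPDH 3′–5′ difference above 0.9, the mean of a gene's probe sets and leaving out each array. The remaining listed retinoid genes and the promoter of Rdh10 were not analysed here.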

Additional observations from a re-analysis of the deposited data

Results flagged for a closer look

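4 of 60 groups of 4 to 10 arrays examined, over the 8 genes, Aldh1a1 and Rarres1, had 1 array set apart from the rest by a gap past Dixon's 95% critical value, and chance flags about 1 in 20 groups. Cyp26a1 scored 0.10 in triadimefon 500 ppm replicate 1, while the other 4 arrays of the group scored -0.21 to -0.15 (ratio 0.831 against 0.71). Rdh10 scored 0.76 in myclobutanil 500 ppm replicate 3, against 1.23 to 1.26 in the other 4 (ratio 0.949 against 0.71). Rdh10 scored 1.68 in triadimefon 1800 ppm replicate 1, against 1.14 to 1.22 in the other 3 (ratio 0.847 against 0.829). Aldh1a1 scored 0.89 in control 7, against 1.83 to 2.09 in the other 6 controls (ratio 0.782 against 0.568).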

How the results depend on the processing

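For triadimefon 1800 ppm against the controls, 1 of the 8 genes passed. The count was 0 with the dimmest 40% of probe sets removed (Cyp26a1 is among them and has no value), 0 with the replicate block (Cyp26a1 0.20, adjusted p = 0.0946), 0 within animals above 3000, 2 without arrays of high 3′–5′ difference (Dhrs3 1.33 and Rbp4 1.10, with 1 triadimefon array) and 0 to 1 with 1 array left out. For triadimefon 1800 against 500 ppm, where 2 passed, it was 0 after quantile normalisation, 1 with the dim probe sets removed, 1 with the number series as a block, 0 with the 3′–5′ covariate, 3 with the replicate block (Cyp26a1, Dhrs3 and Rarb), 3 without arrays of high 3′–5′ difference (Dhrs3, Rdh10 and Rbp4) and 1 to 2 with 1 array left out. Cyp26a1, lost under the number series block and the covariate, was 0.22 in both, against 0.18. With only the 2 triadimefon groups in the fit, the genes past the threshold changed. Cyp26a1 (0.18, adjusted p = 0.0645, limma) and Dhrs3 (0.52, 0.103) were lost, and Rbp4 (0.83, 0.0248) and Rarb (0.39, 0.0293) passed. With 1 array left out the count was 0 to 1 for myclobutanil 2000 ppm and 0 to 2 for triadimefon 500 ppm, both at their highest without control 3. The other comparisons kept a count of 0.

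The alternatives for the 37 other retinoid genes were chosen after seeing the data. At triadimefon 1800 ppm, where 2 passed, the count was 1 in the fit of only the 2 groups, 8 within animals below 3000, 0 above 3000, 15 without arrays of high 3′–5′ difference and 1 to 3 with 1 array left out (1 without triadimefon 1800 ppm replicate 1). At propiconazole 2500 ppm, where 1 passed, it was 0 with the replicate block, below 3000 and without arrays of high 3′–5′ difference, and 0 to 2 with 1 array left out (2 without control 1, 0 without propiconazole 2500 ppm replicate 4). At myclobutanil 2000 ppm, where 0 passed, it was 1 after quantile normalisation and 0 to 2 with 1 array left out (2 without control 3), and at triadimefon 500 ppm 0 to 4 (4 without control 1, 3 without control 3). Between the levels of triadimefon, where 6 passed, it was 10 in the fit of only the 2 groups, 2 with the number series as a block, 11 below 3000, 1 with the 3′–5′ covariate, 18 without arrays of high 3′–5′ difference and 4 to 7 with 1 array left out. The cause of these changes was not tested.

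The deviations of same-numbered arrays from their group means had a median r of -0.01 (76 pairs, 24 above 0.1). For arrays of unlike number the median r was 0.007 (358 pairs, 120 above 0.1). With r from -0.666 to 0.596 among same-numbered pairs, this showed no pairing by number and could not exclude one. With the replicate block the Rarb difference between triadimefon levels was 0.46 (adjusted p = 0.0347). Over all probe sets, calls at triadimefon 1800 ppm numbered 362, and 67 with only the 2 groups fitted, 2461 below 3000, 13 above 3000, 604 with the 3′–5′ covariate and 5495 without arrays of high 3′–5′ difference. Between triadimefon levels they numbered 7690, and 3001 after quantile normalisation, 763 with the number series as a block, 4132 below 3000 and 88 with the covariate; the dim-probe filter, with fewer tested, gave 5113. Over all alternatives run, calls ranged from 0 to 3013 at myclobutanil 2000 ppm (20), 8 to 1030 at propiconazole 2500 ppm (79) and 0 to 4464 at triadimefon 500 ppm (3). No called difference of the 8 genes changed sign under the alternatives run. Leaving only animals above 3000 gave values for triadimefon 1800 ppm against the controls alone.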
